A study of Mus musculus with 4 samples.

Results

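Collagen chains are modified before and after they leave the cell by a small set of enzymes, and 10 genes of that set were examined here, of 39179 genes listed for each library. They were taken by symbol and are the catalytic subunits of the collagen prolyl 4-hydroxylases (*P4ha1*, *P4ha2*, *P4ha3*), the lysyl hydroxylases (*Plod1*, *Plod2*, *Plod3*), the lysyl oxidases *Lox*, *Loxl2* and *Loxl3*, and the collagen chaperone gene *Serpinh1*. Of these 10 genes, 8 passed the filter on low counts and 2, *Lox* and *P4ha3*, had no count in any library. The RNA came from B16F1, an established mouse melanoma line. Parental cells were the unselected line, and the tumor repopulating cells (TRCs) were the cells that formed spheroids from single B16F1 cells in soft 3D fibrin gels of 90 Pa stiffness and were isolated on day 5. There were 2 libraries per group, numbered 1 and 3, and no drug or transgene is named for either group. The groups differ in selection and in culture format together, and these cannot be told apart.

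Procollagen is hydroxylated in the endoplasmic reticulum (ER). Prolyl 4-hydroxylase makes the 4-hydroxyproline that stabilizes the triple helix, and works as a complex of a catalytic alpha subunit, from a *P4ha* gene, and protein disulfide isomerase, from *P4hb*. Lysyl hydroxylases make the hydroxylysine used for sugar attachment and for crosslinks, and *Plod2* encodes the form that acts on the telopeptides at the chain ends. Both enzyme families are dioxygenases that use oxygen, 2-oxoglutarate, iron and ascorbate. HSP47, the product of *Serpinh1*, binds the folded triple helix in the ER, and outside the cell the copper-dependent lysyl oxidases oxidize lysines of collagen and elastin so that crosslinks form. *P4ha1*, *P4ha2*, *Plod2* and several lysyl oxidase genes are known as targets of hypoxia-inducible factors in other cells.

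The libraries held between 35948295 and 43511554 counts on genes, so that 3 counts, taken as the smallest detectable level, correspond to 0.0675 to 0.085 CPM (counts scaled to the library size with TMM factors). The bound reflects counting error alone. Non-unique alignments, which were assigned to no gene, were 15.2% to 18.3% of alignments in 3 libraries and 25.2% in TRC replicate 3. All 8 melanocyte markers examined were detected in every library, at 46.2 CPM or more, with a summed level of 16224 to 19418 CPM in parental cells and 24519 to 27316 CPM in TRCs. Of 6 leukocyte markers, 4 (*Ptprc*, *Cd3e*, *Itgam* and *Adgre1*) had no count in any library, and the summed level was 1.76 to 4.16 CPM in parental cells and 1.64 to 1.85 CPM in TRCs. Of 5 endothelial markers, *Cdh5* and *Kdr* had no count, with summed levels of 0.567 to 1.53 CPM and 0.674 to 2.5 CPM. The 8 fibroblast markers, which include 3 collagen chains, summed to 9.83 to 11.4 CPM in parental cells and 3.15 to 5.89 CPM in TRCs. Most of the parental sum, and of the difference, came from the chain *Col1a2*. It was at 6.7 and 7.79 CPM in parental cells and at 1.52 and 1.01 CPM in TRCs. The sources do not say that libraries of a group came from separate cultures, so p-values measure the spread between these libraries.

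In the comparison of TRCs with parental cells, 5 of the 10 genes were higher in TRCs at a false discovery rate (FDR) under 0.05 in edgeR's exact test and 0 were lower. These were *Loxl2*, *Plod2*, *P4ha2*, *P4ha1* and *Plod1*. Of all 11483 genes tested, 8.81% were called higher and 7.05% lower. *Loxl2* reached the filter through its TRC libraries alone, so its call carries less weight in this count than the other 4. In edgeR's quasi-likelihood test 4 of the 10 were higher, all but *Plod1* of these 5, against 4.94% of all genes tested. *Plod3*, *Loxl3* and *Serpinh1* passed in neither test. For the 5 genes called, both TRC libraries lay above both parental libraries, as for 30.2% of all genes tested. These genes were called from the same libraries, so this separation adds no further support for the calls. *Serpinh1* was below the parental range in both TRC libraries, as were 30.4% of all genes tested.

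**Figure D1:**
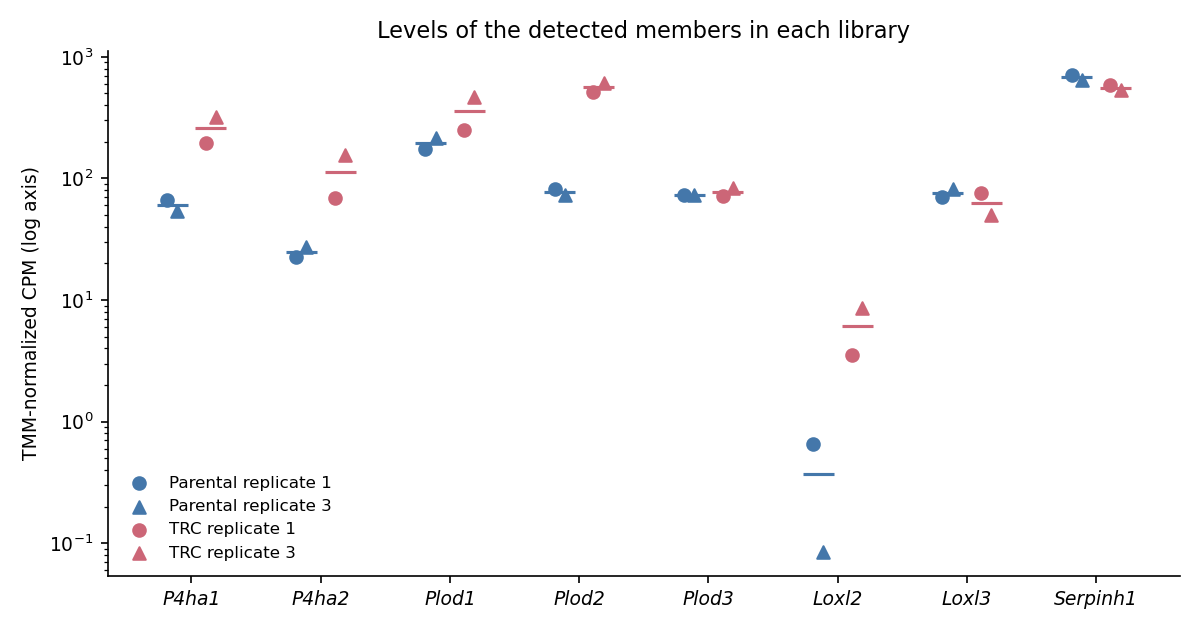
TMM-normalized CPM on a log axis for the 8 detected genes in each of the 4 libraries, with circles for replicate 1, triangles for replicate 3 and a bar at the mean of each group. *Plod2* moves from 72.6 and 82.4 CPM in parental cells to 517 and 605 CPM in TRCs, while *Plod3* and *Loxl3* overlap between the groups.

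Among the prolyl 4-hydroxylase subunits, *P4ha1* and *P4ha2* rose together. *P4ha1* (ENSMUSG00000019916), on the plus strand of chromosome 10 from 59323296 to 59373304 in GRCm38, encodes the most widely expressed alpha subunit. Its level was 66.5 and 53.8 CPM in the parental libraries 1 and 3, against 197 and 321 CPM in TRC replicates 1 and 3. Both TRC libraries stood above both parental libraries, and the lower TRC value was 2.96 times the higher parental value. The means were 60.1 ± 9 CPM and 259 ± 87.4 CPM (SD, n = 2 each), a 4.31-fold change (log2 fold change 2.11, SE 0.27, edgeR exact test FDR = 1.81e-11).

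*P4ha2* (ENSMUSG00000018906), on the plus strand of chromosome 11 from 54100095 to 54131665, encodes the second alpha subunit. It was counted at 22.4 and 27.3 CPM in parental replicates 1 and 3, and at 68.4 and 156 CPM in TRC replicates 1 and 3. The groups did not overlap, and the TRC libraries differed 2.29-fold from each other. The means of 24.8 ± 3.47 CPM and 112 ± 62.2 CPM (SD, n = 2 each) gave a 4.53-fold change (log2 fold change 2.18, SE 0.36, edgeR exact test FDR = 2.77e-08). *P4ha3* (ENSMUSG00000051048, chromosome 7 from 100285520 to 100319699) had 0 counts in all 4 libraries, which allows at most 0.0675 to 0.085 CPM.

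To compare subunits with each other, CPM was divided by the length in kilobases of the merged exons of each gene. On this scale *P4ha1* made up 81.8% and 74.9% of the summed *P4ha* level in parental replicates 1 and 3, compared with 81.4% and 75.7% in TRC replicates 1 and 3. *P4ha2* made up the rest, with 18.2%, 25.1%, 18.6% and 24.3% in the same order. The share of *P4ha2* differed by −0.141 percentage points between the group means, against an SD of 4.89 among parental and 4.03 among TRC libraries. The summed level itself went from 19.7 and 17.4 CPM per kb to 58.9 and 103 CPM per kb, so the mixture of the 2 subunits moved by less than the spread between libraries while their sum was higher in both TRC libraries.

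The partner subunit did not pass the threshold. *P4hb* was counted at 880 and 1191 CPM in parental replicates 1 and 3, and at 1146 and 2443 CPM in TRC replicates 1 and 3. TRC replicate 1 lay inside the parental range, and the log2 fold change was 0.79 (SE 0.33, edgeR exact test FDR = 0.0823). Without TRC replicate 3 it was 0.14, and without TRC replicate 1 it was 1.22 with an FDR of 0.00191. The ratio of the summed *P4ha* level to *P4hb*, both per kb, was 0.0642 and 0.0419 in parental cells and 0.147 and 0.121 in TRCs. Catalytic subunit transcripts were therefore few relative to *P4hb* in all libraries, and nearer to it in TRCs, by 1.36 on the log2 scale. An exact permutation test of 2 against 2 libraries cannot give a two-sided p below 0.333, which is the value found for this ratio.

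The lysyl hydroxylases moved unequally. *Plod2* (ENSMUSG00000032374), on the plus strand of chromosome 9 from 92542223 to 92608428, had the smallest FDR of the 10 genes. It was counted at 82.4 and 72.6 CPM in parental replicates 1 and 3, and at 517 and 605 CPM in TRC replicates 1 and 3. The groups were far apart and the libraries within each group were close, with the lower TRC value 6.28 times the higher parental value. The means of 77.5 ± 6.93 CPM and 561 ± 61.8 CPM (SD, n = 2 each) gave a 7.24-fold change (log2 fold change 2.86, SE 0.20, edgeR exact test FDR = 4.21e-27). By log2 fold change *Plod2* ranked 64 from the highest of the 11483 genes tested.

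*Plod1* (ENSMUSG00000019055, chromosome 4, minus strand, 147909753 to 147936767) encodes the lysyl hydroxylase that acts on the helical part of the chain. Its level was 176 and 213 CPM in parental replicates 1 and 3, and 252 and 466 CPM in TRC replicates 1 and 3. TRC replicate 1 was only 1.18 times the higher parental library, and TRC replicate 3 was 1.85 times TRC replicate 1. The log2 fold change was 0.89 (SE 0.30), and the gene passed in edgeR's exact test with FDR = 0.0216. This call did not hold without TRC replicate 3, where the log2 fold change was 0.37 (FDR = 0.535), without parental replicate 1 (FDR = 0.159), without parental replicate 3 (FDR = 0.0776) or in edgeR's quasi-likelihood test (FDR = 0.0924).

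*Plod3* (ENSMUSG00000004846, chromosome 5 from 136987019 to 136996648) encodes an enzyme that also transfers sugars to hydroxylysine. It was counted at 73.6 and 73.1 CPM in parental cells and at 72.3 and 83.3 CPM in TRCs. The groups overlapped, with a log2 fold change of 0.09 (95% interval −0.32 to 0.49, edgeR exact test FDR = 0.848). The interval leaves out a change of the size measured for *Plod2*.

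The order of the 3 lysyl hydroxylases by level therefore differed between the groups. Per kb, *Plod1* held 45.1% and 51.5% of the summed *Plod* level in parental replicates 1 and 3, ahead of *Plod3* with 28.3% and 26.5% and *Plod2* with 26.6% and 22%. In TRC replicates 1 and 3, *Plod2* held 64.3% and 56.2%, *Plod1* 25% and 34.5%, and *Plod3* 10.7% and 9.24%. *Plod2* was thus in the first place in both TRC libraries. Its last place in the parental libraries depended on the length scaling, since in unscaled CPM it held 24.8% against 22.2% for *Plod3* in parental replicate 1 and 20.2% against 20.4% in parental replicate 3. Its share was 36 percentage points higher in TRCs, with group means of 24.3% ± 3.2 and 60.3% ± 5.7 (SD, n = 2 each), with an exact permutation p of 0.333, the smallest possible. The ratio of *Plod2* to *Plod1* per kb was 0.588 and 0.428 in parental cells and 2.57 and 1.63 in TRCs.

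**Figure D2:**
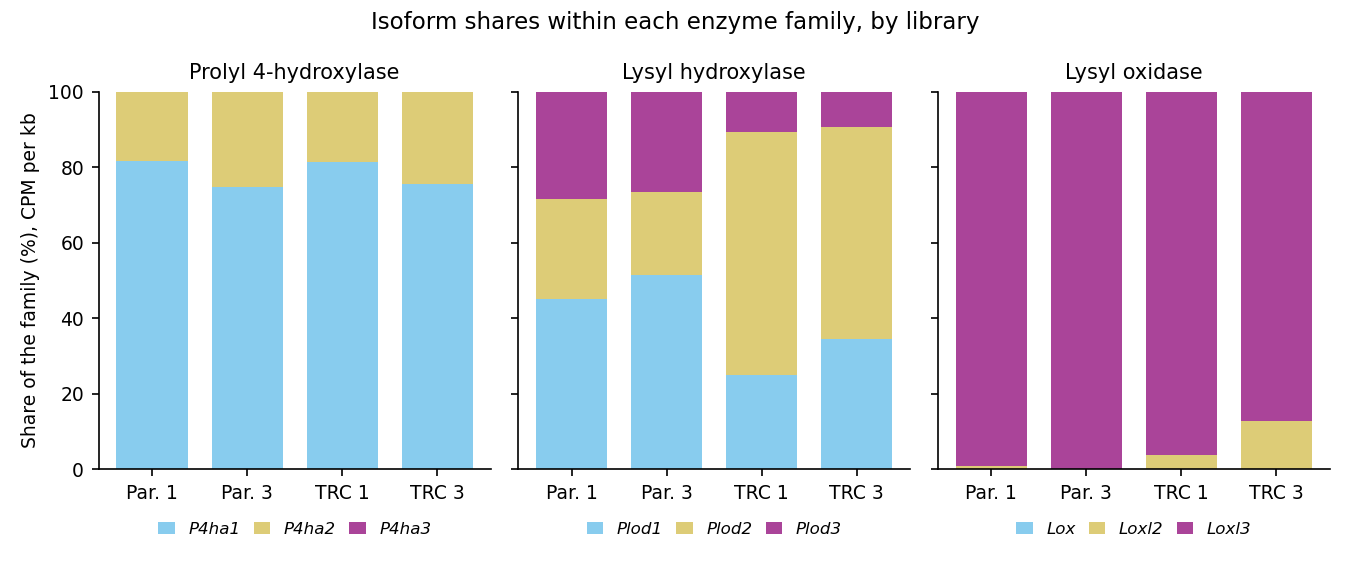
Stacked bars of the share in percent that each gene holds of the summed level (CPM per kb of merged exons) of its family, for each library (Par., parental). The *P4ha1* to *P4ha2* mixture is alike in the 4 libraries, *Plod2* goes from 22% to 26.6% in parental libraries to 56.2% to 64.3% in TRC libraries, and *Loxl3* holds at least 87.1% of the lysyl oxidase level in every library.

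Among the lysyl oxidases, *Lox* (ENSMUSG00000024529, minus strand of chromosome 18 from 52516067 to 52529867), the founding member, was not detected. Its count was 0 in all 4 libraries, which allows at most 0.0675 to 0.085 CPM. *Loxl2* (ENSMUSG00000034205, plus strand of chromosome 14 from 69609068 to 69695834) was low, with 29 and 3 counts in the parental libraries and 147 and 358 in the TRC libraries, replicate 1 first in each case. On the CPM scale it stood at 0.652 and 0.085 in parental cells and at 3.54 and 8.6 in TRCs. Parental replicate 3 stood at the floor and the parental libraries differed 7.67-fold, yet the lower TRC value was 5.42 times the higher parental value. The log2 fold change was 4.0 (SE 0.78, edgeR exact test FDR = 3.93e-06). Since the gene reached the filter through the group in which it was high, the test was also run with no filter, where the FDR was 1.53e-05. From the pooled counts, 505 against 32, the ratio was 15.1 with a 95% exact interval of 10.6 to 22.4 that covers counting error only. Without parental replicate 1 the log2 fold change was 6.11, and without parental replicate 3 it was 3.21.

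*Loxl3* (ENSMUSG00000000693, plus strand of chromosome 6 from 83034173 to 83052562) supplied most of the lysyl oxidase level in each library. Its level was 70.2 and 82.1 CPM in parental replicates 1 and 3, and 76.4 and 49.6 CPM in TRC replicates 1 and 3. The groups overlapped, with a log2 fold change of −0.27 (95% interval −0.80 to 0.25, edgeR exact test FDR = 0.524). Per kb, *Loxl3* made up 99.2% and 99.9% of the summed level of the 3 oxidases in parental cells and 96.2% and 87.1% in TRCs, with *Loxl2* as the remainder. The summed level was 15.4 and 17.8 CPM per kb in parental cells and 17.3 and 12.4 CPM per kb in TRCs, so the rise of *Loxl2* did not raise the family sum above the parental range. The other 2 genes of the family, *Loxl1* and *Loxl4*, were not tested. *Loxl1* had 1 count in TRC replicate 3 and 0 in the other libraries, and *Loxl4* had 10 and 7 counts in parental cells and 29 and 7 in TRCs.

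*Serpinh1* (ENSMUSG00000070436, minus strand of chromosome 7 from 99345376 to 99353239) was the highest of the 10 genes per kb in every library. It was counted at 714 and 650 CPM in parental replicates 1 and 3, and at 584 and 535 CPM in TRC replicates 1 and 3. Both TRC values lay below both parental values, but the log2 fold change of −0.29 did not pass the threshold (95% interval −0.65 to 0.08, edgeR exact test FDR = 0.435). The upper bound of its interval was below the fold change of each hydroxylase that was called, and its ratio to *P4hb* per kb was 0.951 and 0.639 in parental cells and 0.597 and 0.256 in TRCs.

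**Figure D3:**
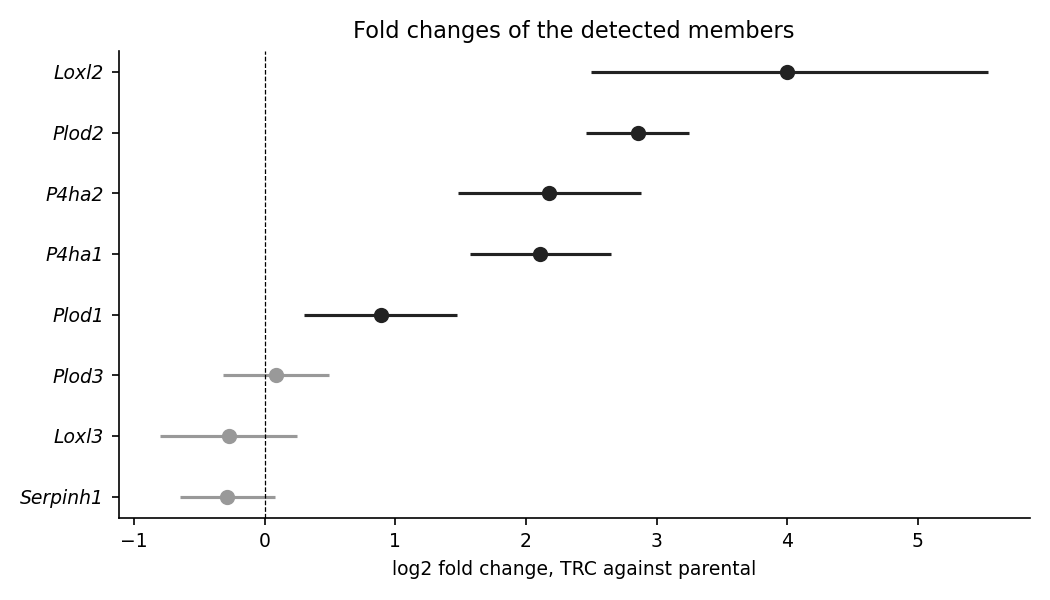
Log2 fold changes of TRCs against parental cells for the 8 detected genes (points, edgeR) with 95% intervals from DESeq2 standard errors (lines). Black marks genes with FDR under 0.05 in the exact test and grey the others, and the intervals of *Plod3*, *Loxl3* and *Serpinh1* include 0.

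By level per kb in parental cells the order was *Serpinh1* at 279, *Plod1* at 28.7, *Loxl3* at 16.5, *Plod3* at 16.2, *P4ha1* at 14.6, *Plod2* at 14.4, *P4ha2* at 3.98 and *Loxl2* at 0.0682 CPM per kb. The range of *Loxl3* overlapped those of *Plod3*, *P4ha1* and *Plod2*, and the ranges of *P4ha1* and *Plod2* overlapped. Those of *Plod3* and *P4ha1* came within 0.1 CPM per kb of each other. In TRCs the order was *Serpinh1* at 229, *Plod2* at 104, *P4ha1* at 62.9, *Plod1* at 53.1, *P4ha2* at 18, *Plod3* at 17.2, *Loxl3* at 13.7 and *Loxl2* at 1.12 CPM per kb. Here the ranges of *P4ha1* and *Plod1* overlapped, and so did those of *P4ha2*, *Plod3* and *Loxl3* with each other. Against the 11403 tested genes with a known length, *Plod2* went from percentile 68.2 of level per kb to percentile 96.8. *P4ha1* went from 68.7 to 94.1, whereas *Serpinh1* was at percentile 99 in parental cells and 98.6 in TRCs. The merged exon length exceeds that of any single transcript for genes with several isoforms, so levels per kb can understate such genes.

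TRC replicate 3 exceeded TRC replicate 1 in 6 of the 8 detected genes, compared with 50.1% of all genes tested. It was at least 1.5 times higher for *P4ha1*, *P4ha2*, *Plod1* and *Loxl2*, a margin reached by 6.17% of all genes tested. The fold changes of *P4ha1* and *P4ha2* without TRC replicate 3 were 1.70 and 1.46 on the log2 scale, with FDR = 7.37e-07 and 0.000103 in edgeR's exact test. That library also had the highest share of alignments that were not unique, whose part in these values was not tested.

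Some of these genes share exonic bases with a neighbour on the opposite strand, and the strand setting of the counting is not given in the sources used here. *Loxl3* shares 11.6% of its exonic bases with *Htra2*, which had a log2 fold change of −0.90 (FDR = 0.00476, edgeR exact test), and *Plod3* shares 11.7% with *Znhit1*, at 0.05 (FDR = 0.94). *Plod2* shares 6.42% with *Gm38391*, which is not among the genes listed for the libraries. The antisense gene *Gm27177*, which covers 5.57% of the exonic bases of *Loxl2*, had at most 1 count in a library. The part of these neighbours in the counts was not tested.

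Promoter sequences from RefSeq (GRCm38.p6) were not examined for *Plod2*, *Lox*, *Loxl2* and *Loxl3*. Those of the other 6 of the 10 genes, *P4ha1*, *P4ha2*, *P4ha3*, *Plod1*, *Plod3* and *Serpinh1*, were used. They were searched over the 250 bases before the gene start for the core of the hypoxia response element, the letters ACGTG or GCGTG on either strand, because hypoxia-inducible factors are known to regulate several of these genes. Of 32851 promoters in that table, 38.6% held at least 1 match and 6.58% held 3 or more. *P4ha1* and *P4ha2*, which rose more than 4-fold, held 3 matches each. *Plod1* and *Serpinh1* held 1 each, *P4ha3* held 0, and *Plod3*, whose groups overlapped, held 4. The partner genes *P4hb* and *Ppib*, which did not pass in edgeR's exact test, were also searched and held 2 and 4. A match describes the letters only and is not a bound site. The windows of 3 genes that were called and of *Serpinh1*, which was not, are shown 5′ to 3′ on the strand of the gene, with matches in capitals, and they lie at chr10:59323046-59323295 (plus), chr11:54100674-54100923 (plus), chr4:147936777-147937026 (minus) and chr7:99353240-99353489 (minus) in the same order.
P4ha1: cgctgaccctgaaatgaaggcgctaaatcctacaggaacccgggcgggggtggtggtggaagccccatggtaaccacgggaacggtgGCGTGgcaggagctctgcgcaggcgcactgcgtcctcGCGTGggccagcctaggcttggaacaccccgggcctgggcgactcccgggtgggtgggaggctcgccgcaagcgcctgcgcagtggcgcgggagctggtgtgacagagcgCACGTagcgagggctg
P4ha2: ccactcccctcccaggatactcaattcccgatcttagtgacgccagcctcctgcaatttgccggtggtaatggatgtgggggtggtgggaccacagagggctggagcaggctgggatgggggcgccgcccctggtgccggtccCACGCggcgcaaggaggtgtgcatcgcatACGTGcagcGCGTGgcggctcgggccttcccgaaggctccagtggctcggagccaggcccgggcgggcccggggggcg
Plod1: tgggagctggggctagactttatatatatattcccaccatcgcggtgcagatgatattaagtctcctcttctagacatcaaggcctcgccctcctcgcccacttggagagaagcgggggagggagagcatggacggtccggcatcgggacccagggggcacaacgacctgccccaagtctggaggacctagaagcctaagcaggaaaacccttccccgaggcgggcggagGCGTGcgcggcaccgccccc
Serpinh1: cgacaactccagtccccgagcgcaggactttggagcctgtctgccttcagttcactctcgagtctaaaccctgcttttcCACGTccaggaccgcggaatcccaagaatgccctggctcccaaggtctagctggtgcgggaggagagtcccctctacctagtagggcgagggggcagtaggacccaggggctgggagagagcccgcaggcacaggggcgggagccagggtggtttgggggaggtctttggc

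In *P4ha1* the match on the opposite strand begins 16 bases before the start, and the others lie 126 and 163 bases before it. In *P4ha2* the 3 matches lie 69, 78 and 107 bases before the start. The *P4ha2* window precedes the RefSeq start, which lies downstream of the start of the gene in GENCODE.

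The other genes of the pathway were taken as 4 lists. The first holds 21 genes, mostly of products that assist procollagen in the ER, such as prolyl 3-hydroxylases, cyclophilin B (*Ppib*), FK506-binding proteins and export factors, and also the secreted *Sparc*, *Loxl1* and *Loxl4*. Of these, 17 were tested, of which TRCs had 4 at a higher and 0 at a lower level, or 23.5% and 0% against 8.81% and 7.05% of all genes tested. The median of their log2 fold changes was 0.26, against 0.0034 for all genes tested. *Fkbp14*, a prolyl isomerase of the ER that binds procollagen, rose from 18.9 and 20.5 CPM to 59.6 and 51.8 CPM, a 2.82-fold change (FDR = 1.25e-07). *P3h3*, a member of the prolyl 3-hydroxylase family, rose from 33.4 and 19.2 CPM to 53.2 and 72.9 CPM (2.4-fold, FDR = 0.00056), with an FDR of 0.0686 without TRC replicate 3. *Sec23a*, a coat protein gene of the vesicles that leave the ER, rose 1.83-fold (FDR = 0.00157), with an FDR of 0.0585 without TRC replicate 1. *Creb3l1*, a transcription factor gene known to act on collagen genes, rose 2.91-fold from 1.93 to 5.63 CPM (FDR = 0.0153), but had an FDR of 0.068 in the quasi-likelihood test, 0.209 without parental replicate 3 and 0.276 without TRC replicate 3. *Ppib* was at 213 and 242 CPM in parental cells and at 237 and 274 CPM in TRCs, which overlap (log2 fold change 0.17, FDR = 0.693). FDR values of this and the following lists are from edgeR's exact test over all genes tested unless another test is named.

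The second list holds 13 genes of procollagen processing outside the cell and of collagen turnover. Of 6 tested, 1 was higher and 1 lower, which at 6 genes is near the 8.81% and 7.05% of all genes tested, with a median log2 fold change of −0.42. *Pcolce*, which enhances the removal of the procollagen C-propeptide, fell from 64 and 84.2 CPM to 18.9 and 23.1 CPM. Parental cells had 3.53 times the TRC level (FDR = 1.55e-10). *Furin*, a proprotein convertase gene, rose 1.66-fold (FDR = 0.022), a call that did not hold without parental replicate 1 (FDR = 0.0997), parental replicate 3 (FDR = 0.0919) or TRC replicate 1 (FDR = 0.426), or in the quasi-likelihood test (FDR = 0.0634).

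The collagen chains are the substrates of the enzymes. Of 41 chain genes, 21 were tested, and TRCs had 2 of them at a higher and 3 at a lower level. These are 9.52% and 14.3%, against 8.81% and 7.05% of all genes tested, so the share of higher chains was at the background. The median of their log2 fold changes was 0.05. *Col1a2*, a chain of type I collagen, was at 6.7 and 7.79 CPM in parental cells and at 1.52 and 1.01 CPM in TRCs, 5.73 times lower (FDR = 4.15e-06). *Col4a1* of basement membrane collagen and *Col5a1* of fibrillar type V collagen fell by 1.21 and 0.71 on the log2 scale (FDR = 0.0066 and 0.0176). The call of *Col4a1* held in 1 of 4 omissions of a library, that of parental replicate 3, with FDR values up to 0.166. The call of *Col5a1* also held in 1, that of parental replicate 1, with FDR values up to 0.244. Higher were the cartilage chains *Col2a1*, which passed the filter through its TRC libraries alone, and *Col11a2*, whose groups overlapped (FDR = 0.0379). The log2 fold change of *Col11a2* was −0.20 without TRC replicate 1 (FDR = 0.928), and its FDR was 0.0815 and 0.315 without parental replicates 1 and 3. Summed per kb over the 41 chains, the level was 44.5 and 29.6 CPM per kb in parental replicates 1 and 3, and 40.6 and 29.6 CPM per kb in TRC replicates 1 and 3. The summed substrate levels of the groups overlapped, while the sums of the *P4ha* and *Plod* genes did not overlap between the groups, at 57.5 and 61.1 CPM per kb for *Plod* in parental cells against 149 and 199 CPM per kb in TRCs.

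The last list holds 20 genes of elastic fibres, matrix proteins that work with lysyl oxidases, and copper supply. Of 10 tested, 4 were higher and 2 lower, or 40% and 20% against 8.81% and 7.05% of all genes tested. In the quasi-likelihood test 1 was higher and 1 lower, where 4.94% of all genes tested were higher. The list was chosen with earlier results of these data known, so these shares are not independent support. The median log2 fold change was 0.79, against 0.0034 for all genes tested. *Atp7a*, the copper pump that loads secreted copper enzymes, rose from 77.5 and 83.3 CPM to 144 and 172 CPM (1.97-fold, FDR = 0.00057). *Fbln1*, *Fbln5* and *Ltbp3*, genes of matrix glycoproteins, rose 1.83-, 2.29- and 1.84-fold (FDR = 0.00879, 0.0166 and 0.00814), and in the quasi-likelihood test their FDR values were 0.0531, 0.107 and 0.0521. Without parental replicate 3 their FDR values were 0.209, 0.28 and 0.153. Without TRC replicate 3 the log2 fold change of *Fbln5* was 0.33 (FDR = 0.644) and that of *Fbln1* was 0.62 (FDR = 0.23), and without TRC replicate 1 that of *Ltbp3* was 0.54 (FDR = 0.307). *Postn*, which encodes the matrix protein periostin, fell by 2.16 and *Fn1*, which encodes fibronectin, by 1.17 on the log2 scale (FDR = 6.44e-06 and 0.00295). *Fn1* had an FDR of 0.0572 in the quasi-likelihood test, 0.155 without parental replicate 1 and 0.148 without TRC replicate 1. *Fbn2*, *Efemp1*, *Mfap4* and *Mfap5* had no count in any library.

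**Figure D4:**
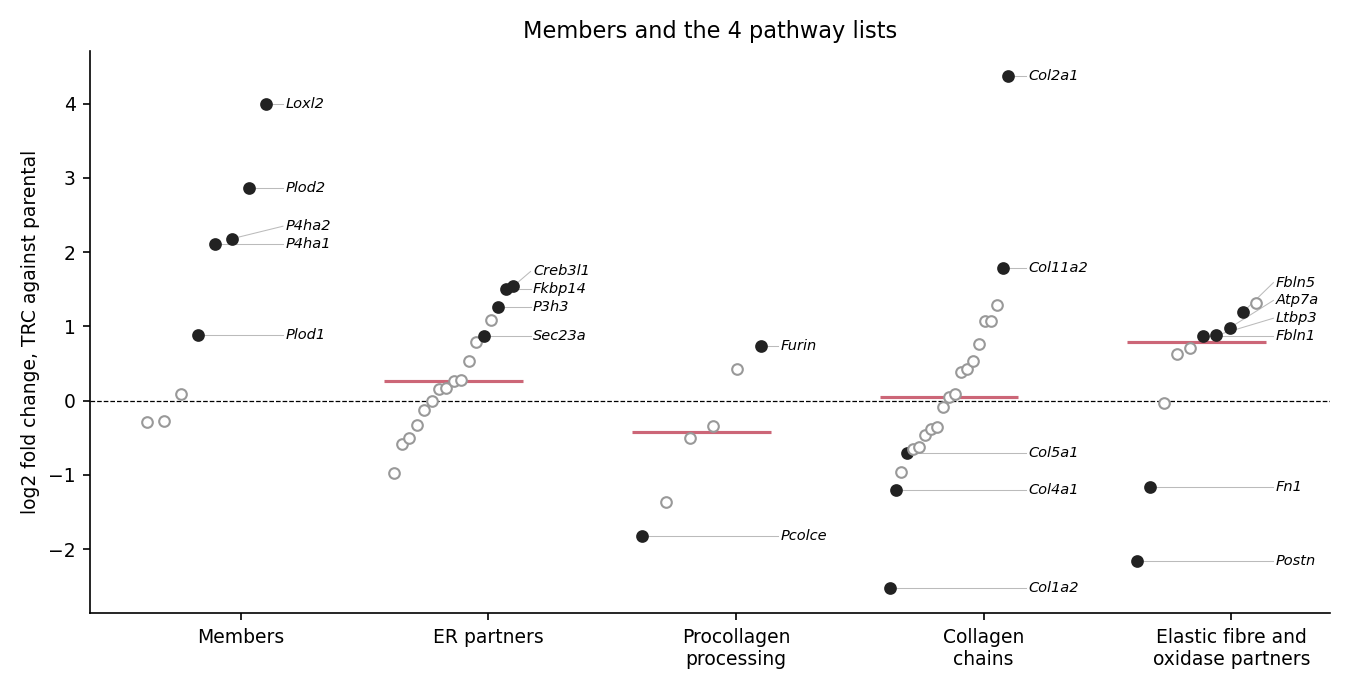
Log2 fold changes of TRCs against parental cells for the tested genes of the set and of the 4 pathway lists, 1 point per gene, with filled points and names for FDR under 0.05 and red bars at the median of each list. The 5 named genes of the set lie between 0.89 and 4.0, and the collagen chains are spread on both sides of 0.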

How the data were processed

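RNA of 2 parental and 2 TRC libraries of B16F1 cells was sequenced, single-end, from stranded libraries. The authors used Trimmomatic 0.35 for trimming, TopHat2 2.1.0 for alignment to GRCm38 and HTSeq for counting on Ensembl genes. The deposited values are raw counts per gene. The totals that name no gene, 20.2% to 29% of each file, were removed. As in the methods of the study, a gene with less than 1 CPM in at least 3 samples was removed, which left 11483 genes. The study reported fewer genes in its final table, so that table is not reproduced exactly. TMM factors were computed, and the exact test with common and tagwise dispersions was run in edgeR 4.0.16 under R 4.3.3. The prior count was 0.125, and the threshold was a Benjamini-Hochberg FDR under 0.05 over all genes tested. Standard errors and 95% intervals came from DESeq2 1.42.0. Symbols, positions and merged exon lengths came from GENCODE M21 (GRCm38), and promoters from RefSeq. Shares and ratios were compared with exact permutation tests over samples. Samples were grouped by their labels.

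The genes examined and the lists were chosen with earlier results of these data known. Their shares of called genes, set against all genes tested, are therefore a description and not independent support. Named were the 10 genes, *P4hb*, *Ppib*, *Loxl1*, *Loxl4* and, from each pathway list, at most 5 genes per direction with the smallest FDR among those called. Genes at 0 in the elastic fibre list were named after their values were seen. Alternatives were other filters, normalizations and tests, a replicate block, unscaled CPM, and each library left out in turn. In leave-one-out tests the lone sample of a group is assumed to vary like the other group. The exact test was tested on simulated data, in which 200 genes carried a log2 change of 1.5. It recovered 184 of them with 22 false calls among 11379 genes. Set against the 184 recovered, these 22 are a larger share of the calls than the FDR threshold of 0.05. The nominal FDR was therefore exceeded in that simulation. A marker gene of the lists is not reported here.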

Additional observations from a re-analysis of the deposited data

How the results depend on the processing

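The calls of *P4ha1*, *P4ha2* and *Plod2* held under the 3 filters, 2 normalizations, 3 tests and 4 omissions of a library that were run. *Plod1* fell short in the quasi-likelihood test (log2 fold change 0.89) and with the replicate block (0.83), and took values of 0.37 to 1.25 across the omissions. *Loxl2* fell short with the block (4.01, FDR = 0.0576), ranged from 3.21 to 6.11, and is removed by both stricter filters. *Plod3* ranged from −0.03 to 0.17, with the reversed sign without TRC replicate 3, *P4ha1* from 1.70 to 2.40, *P4ha2* from 1.46 to 2.64, *Plod2* from 2.73 to 2.95, *Loxl3* from −0.63 to −0.0012 and *Serpinh1* from −0.37 to −0.22. The genes of the set called higher numbered 3 with the block, and 4 to 5 with a library left out.

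Over all genes, 567 were higher and 487 lower in the quasi-likelihood test and 477 and 308 with the block, against 1012 and 810. With a library left out they ranged from 500 to 1078 and from 269 to 854. Higher and lower ER partners ranged from 2 to 5 and 0 to 1, processing genes from 0 to 1 and 1 to 2, collagen chains from 1 to 3 and 1 to 2, and elastic fibre genes from 2 to 5 and 1 to 2. With the block, 2 ER partners were higher, 0 processing genes higher, 1 collagen chain higher and 1 lower, and 2 elastic fibre genes higher and 1 lower. The quasi-likelihood test gave 0 processing genes higher, 1 collagen chain higher, and 1 elastic fibre gene higher and 1 lower. A single collagen chain was higher with DESeq2 and with at least 1 CPM in at least 3 samples. Without length scaling the share of *Plod3* differed by −13.4 percentage points instead of −17.4. The labels give both groups the numbers 1 and 3, and same-numbered libraries deviated together with r of 0.0267 across genes. With 2 libraries per group, this value cannot decide whether same-numbered libraries were prepared together. Genes under about 3 counts per library, such as *Lox* and *P4ha3*, cannot be compared at this depth.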
